A study of Rattus norvegicus with 8 samples.

Results

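In the hippocampus of rats infused with corticosterone, 1429 isolated regions of the rn5 genome held a glucocorticoid receptor (GR) peak called in restrained rats and no GR peak called in rats left in the home cage. They are 1429 of the 7298 regions in the merged list of GR binding sites, and 1429 of the 5745 regions in that list with no other merged region within 10 kb. The members were chosen by their calls: a merged region was taken if it shared at least 1 bp with a peak of the stressed list, shared no base with a peak of the non-stressed control (NSC) list, and lay more than 10 kb, edge to edge, from every other merged region. The peak calls of both groups, and with them tag density, z-score, length and position, therefore belong to the same contrast that chose the members. The values are given as a description, with no test between sets of regions.

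GR is a nuclear receptor that is held mostly in the cytoplasm until a glucocorticoid, corticosterone in the rat, binds to it. The receptor then enters the nucleus and binds DNA, often at glucocorticoid response elements, where it raises or lowers transcription of nearby and distant genes. The hippocampus holds high levels of GR, and many of its binding sites lie in chromatin that is already open before hormone arrives. GR ChIP-seq recovers the DNA to which the receptor is fixed, with antibody against GR, and reads its position by sequencing.

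The tissue was the whole hippocampus of male Sprague-Dawley rats aged 9 weeks. All rats were adrenalectomised, carried a jugular cannula, had lost the corticosterone supplement in their drinking saline 12 hours earlier, and received a corticosterone infusion of 30 minutes, so both groups had the same hormone given from outside and neither had adrenal hormone of its own. The stressed group was restrained for those 30 minutes, while the NSC group stayed in the home cage. Each group had 2 GR ChIP libraries and 2 input libraries, 8 libraries in all, and each replicate was a pool of hippocampi from 8 rats, so no value belongs to a single animal and the cell types of the hippocampus are mixed. The 3 deposited lists hold 1 value per peak and group with both replicates combined. No replicate error can be given for any peak, and the depth behind a value is unknown.

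A peak of either list has a maximum tag density, which is the height of its input-normalised tag profile, and a z-score from the peak caller, which rates how far the peak stands above its surroundings. The merged list took in all stressed peaks that reached a tag density of 9.37 and all NSC peaks that reached 11.5. The highest tag density outside it was 9.32 in the stressed list and 11.4 in the NSC list. A stressed peak could thus enter the merged list at a lower tag density than an NSC peak. An NSC peak at any tag density, however low, was enough to keep a region out of the set. Where no NSC peak was called, the lists give no NSC tag density, so the level of binding in the NSC group at the members is not known from them. The study itself compared tag counts of both groups at its GR binding sites. It reported no site with a significant difference between stressed and NSC rats.

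Among all merged regions, 24.8% held a stressed peak and no NSC peak, and among isolated merged regions the share was 24.9%. Because the rule used these calls, nothing is read from the shares. Of the 1809 merged regions with a stressed peak and no NSC peak, 1429 were isolated and 380 had a merged neighbour within 10 kb. The isolated regions with a peak in both groups numbered 3336, and those with an NSC peak only numbered 980. These are the nearest comparison sets. All but 5 members held a single stressed peak, those 5 held 2 peaks each, and 1427 members started and ended where a stressed peak did.

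The members had lower tag densities than the isolated regions with a peak in both groups, though all stood in the upper part of the stressed list, above at least 74.6% of its peaks. Their stressed tag density had a median of 13.1, with quartiles of 10.5 and 16.1 and a range of 9.37 to 48.1. The isolated regions with a peak in both groups had a median stressed tag density of 20.9, and the isolated regions with an NSC peak only had a median NSC tag density of 14.8. A tag density of 20 or more was reached by 135 members (9.45%), against 1798 regions with a peak in both groups (53.9%) and 50 regions with an NSC peak only (5.10%). At 30 or more, these numbers were 7, 791 and 5. Within the whole stressed list of 23970 peaks, 785 members (54.9%) lay at or above the 80th percentile of tag density, which was 12.4. The remaining members lay below it, though all members are in the deposited merged list, which reaches further down. How the cut for the strongest peaks in the study's methods relates to this percentile was not tested. Only 107 members (7.49%) lay at or above the 90th percentile of 20.6, 9 lay at or above the 95th percentile of 28.7, and none reached the 99th percentile of 50.5.

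**Figure D1:**
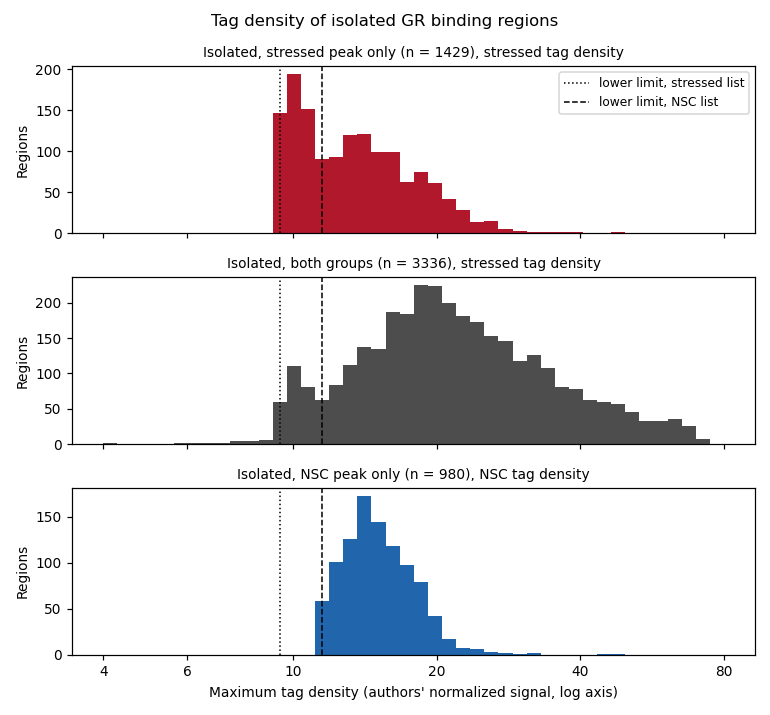
Histograms of maximum tag density (authors' normalised signal, log axis) for isolated regions with a stressed peak only, with peaks in both groups (stressed value shown) and with an NSC peak only (NSC value shown). The members rise to a first maximum just above the lower limit of the stressed list at 9.37, dip near the limit of the NSC list at 11.5, rise again near 14, and have few regions above 20.

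The lower limits of the 2 groups divide the members. There were 534 members (37.4%) with a stressed tag density under 11.5, in a range where an NSC peak of the same height would not have entered the merged list. The other 895 members lay at or above this limit, beside 980 isolated regions with an NSC peak only, which all lie above it because no weaker NSC peak could enter alone. Tag density took few distinct values, with 378 among all members. The most frequent, 9.62, was shared by 40 members.

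The 10 members with the highest tag density reached 28.6 to 48.1, and each had an NSC peak no nearer than 14.1 kb. The highest, on chromosome 15 from 93420002 to 93420465, reached a stressed tag density of 48.1 with a z-score of 13.02, and its nearest NSC peak lay 379 kb away. That tag density was above 98.8% of the stressed list, while the z-score was below the median z-score of the members. A region on chromosome 4 from 243193904 to 243194337 followed with a tag density of 38.4 and a z-score of 13.2, and its nearest NSC peak was 290 kb away. On chromosome 7 from 63398988 to 63399389, the tag density was 37.7 and the z-score 13.1.

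The next region, on chromosome 10 from 20366970 to 20367457, had a tag density of 35.5 and lay 10.6 kb from its nearest merged neighbour, so it was only just isolated. Its nearest NSC peak, 14.1 kb away, had a tag density of 16.3. A region on chromosome 6 from 54220560 to 54220977 had a tag density of 35.1 with a z-score of 10.3. On chromosome 16, 1 region from 47438160 to 47438682 had a tag density of 31.0 and another, from 1795923 to 1796433, had 28.6. The remaining 3 of the 10 were on chromosome 5 from 66804690 to 66805183 (tag density 30.6), on chromosome 3 from 158880760 to 158881382 (29.8) and on chromosome 12 from 33320381 to 33320700 (29.0). Of the 10, the chromosome 5 region alone had a z-score above 20, at 24.1. The 10 strongest members thus stood high in tag density and, with that exception, low in z-score.

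At the other end of the rule, 10 members shared the lowest tag density, 9.37. Among them, a region on chromosome 13 from 99629773 to 99630171 had a z-score of 58.1 and an NSC peak 0.337 kb away. A region on chromosome 16 from 79020753 to 79021144 had a z-score of 12.5 and its nearest NSC peak 27.5 kb away, and one on chromosome 2 from 181259357 to 181259656 showed a z-score of 34.8 with the nearest NSC peak at 99.5 kb. Stressed peaks under the limit were counted where they had no NSC peak at the same place and no merged region within 10 kb. Of these, 36 lay just outside it, at a tag density of 9.32. Examples on chromosome 1 ran from 10638021 to 10638171 and from 21973305 to 21973336, with z-scores of 32.7 and 35.8. Anywhere below the limit, at tag densities from 9.32 downwards, lay 13016 such peaks.

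The z-scores of the members had a main body under 15 and a long upper range. The median was 13.2, but the upper quartile was 25.6, the 90th percentile 57.7 and the highest value 111. There were 368 members with a z-score from 9 to under 11, 329 from 11 to under 13, 167 from 13 to under 15 and 134 from 15 to under 20. Above that, 108 lay from 20 to under 30, 137 from 30 to under 50, 104 from 50 to under 70 and 82 at 70 or more. A z-score of 20, chosen after the values were seen, was used to describe the lower and upper parts separately. It gave 431 members with a high z-score (30.2%, 95% Wilson interval 27.8% to 32.6%, which covers counting of regions only) and 998 with a low one. Over all merged regions with a stressed peak the share at or above 20 was 43.5%, and over the whole stressed list it was 67.6%. In the isolated regions with a peak in both groups, 45.4% had a stressed z-score of 20 or more, and in those with an NSC peak only, 33 of 980 (3.37%) had such an NSC z-score.

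High z-scores in the members went with low tag density. Members with a high z-score had a median tag density of 10.3 with quartiles of 9.77 and 11.2, while members with a low z-score had a median of 14.4 with quartiles of 12.2 and 17.6. Under the NSC limit of 11.5, 336 of 534 members (62.9%) had a high z-score, and at or above it 95 of 895 (10.6%) did. Across the 1429 members, Pearson's r between log2 tag density and log2 z-score was -0.45 and Spearman's rho was -0.37. Across the 3336 isolated regions with a peak in both groups, the same values were 0.45 and 0.55, and across the 980 with an NSC peak only they were 0.13 and 0.42. The sets span unlike ranges of tag density, since all regions with an NSC peak only lie above 11.5 and 534 members lie under it. No correlation was computed over the members at or above that limit alone. Within the members of low z-score, r was 0.20 and rho 0.23, and within those of high z-score they were -0.20 and -0.11, so neither class alone gave values as negative as those over all members. These correlations run across regions of the same libraries, which do not replicate each other, and they carry no p-value.

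**Figure D2:**
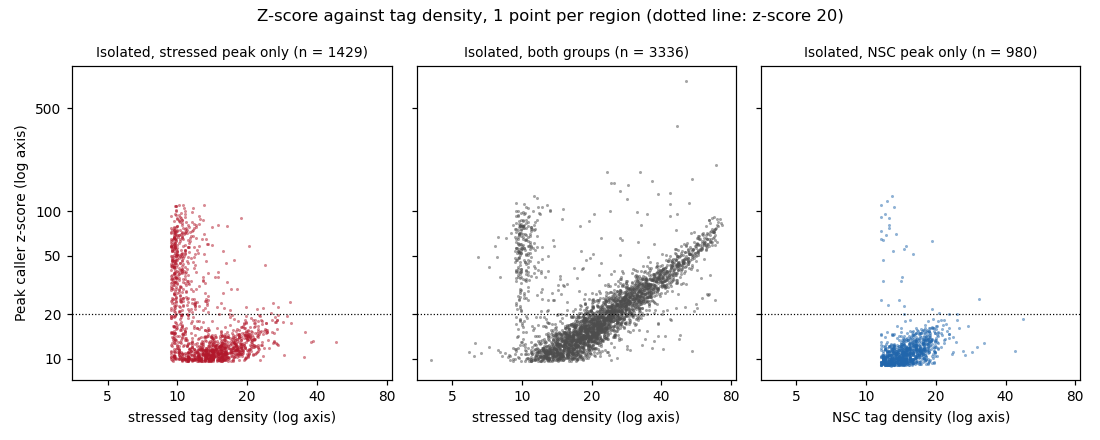
Peak caller z-score against maximum tag density, both on log axes, with 1 point per isolated region and a dotted line at a z-score of 20. In the members (left) a column of points with z-scores up to 111 stands near a tag density of 10, beside a cloud of higher tag density and low z-score, and few members lie on the rising diagonal along which regions with peaks in both groups (middle) reach 72.9.

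Regions of both kinds also occurred among the isolated regions with a peak in both groups, where a column near a tag density of 10 and a rising diagonal can be seen. The sets differed in both places. The column, with a high z-score under the NSC limit, held 336 of the 1429 members and 206 of the 3336 regions with a peak in both groups. Some of these 206 regions had a stressed tag density under 9.37, where no member can lie. On the diagonal, with a stressed tag density of 30 or more and a high z-score there was 1 member and 758 regions with a peak in both groups. The member was the chromosome 5 region named above. From 20 to 30 with a high z-score there were 7 members and 462 regions with a peak in both groups. Strong peaks that the caller also rated highly were thus almost all called in both groups.

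Set against tag density, the share of isolated regions with a stressed peak that had no NSC peak fell from 64.1% (534 of 833) under the NSC limit to 0.877% (7 of 798) at a tag density of 30 or more. Between these it was 51.5% from the limit to 13, 45.6% from 13 to 16, 26.3% from 16 to 20 and 11.3% from 20 to 30. The fall had different shapes in the 2 z-score classes. With a high z-score the share was 62.0% under the limit, 65.3% (47 of 72) from the limit to 13 and 56.6% (30 of 53) from 13 to 16, and then 19.6% (10 of 51), 1.49% (7 of 469) and 0.132% (1 of 759). With a low z-score it was 68.0%, 47.8%, 44.8%, 26.7%, 18.2% (121 of 666) and 15.4% (6 of 39, 95% Wilson interval 7.25% to 29.7%). Of the 135 members with a tag density of 20 or more, 8 had a high z-score. The band under the NSC limit also held regions with a peak in both groups whose stressed tag density was under 9.37, down to 4.06. No member can lie there, so the shares in this band are lower than they would be from 9.37 upwards. Since the share is set by the rule itself, its size is a description of the lists.

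**Figure D3:**
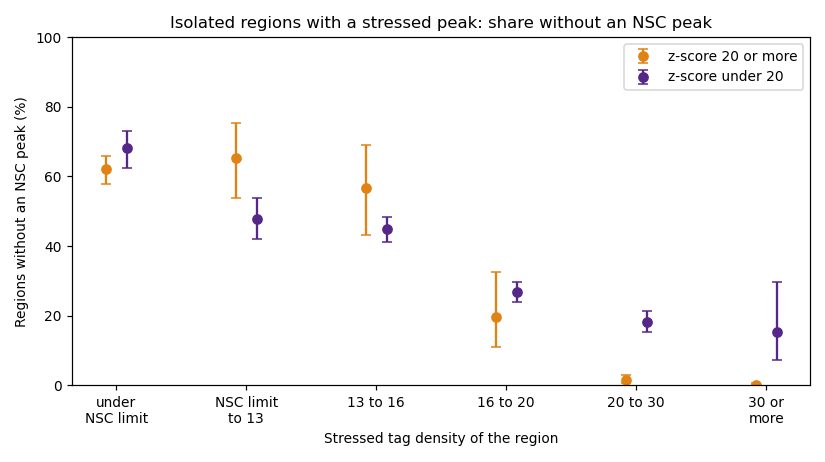
Share (%) of isolated regions with a stressed peak that have no NSC peak, by band of stressed tag density, with 95% Wilson intervals over regions, for z-scores of 20 or more (orange) and under 20 (purple). Both classes lie above 60% under the NSC limit, and at 20 or more the high class is at 1.49% or less while the low class stays at 15.4% or more.

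A member had no NSC peak at its own position, but some had one close by. The nearest NSC peak lay within 1 kb of 141 members (9.87%), within 10 kb of 309 (21.6%) and within 100 kb of 982 (68.7%). For isolated regions with a peak in both groups, another NSC peak lay within these distances of 3.18%, 7.88% and 63.8%, so the share at 100 kb was similar. In 12 members the nearest NSC peak lay within 0.1 kb. The rule allows only weak NSC peaks here, because an NSC peak at or above 11.5 would itself be a merged region within 10 kb. The NSC peaks nearest to the 141 members had a median tag density of 6.39, a range of 1.35 to 10.8 and a median z-score of 35.9. In the other direction, 7 of the 980 isolated regions with an NSC peak only (0.714%) had a stressed peak within 1 kb. All 980 lay above a tag density of 11.5. Among members at or above that limit, 15 of 895 (1.68%) had an NSC peak within 1 kb.

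Nearby NSC peaks were mostly found at members with a high z-score. An NSC peak lay within 1 kb of 114 of 431 members with a high z-score (26.5%) and of 27 of 998 with a low one (2.71%). Within 10 kb these shares were 51.7% and 8.62%. The median gap to the nearest NSC peak was 7.26 kb in the first class and 65.9 kb in the second. Taking tag density and z-score together, an NSC peak lay within 1 kb of 104 of 336 members (31.0%) under the NSC limit with a high z-score, 22 of 198 (11.1%) under the limit with a low one, 10 of 95 (10.5%) at or above the limit with a high one and 5 of 800 (0.625%) at or above the limit with a low one. The last class, 800 members or the larger part of the set, had an NSC peak called within 1 kb least often. Another stressed peak lay within 1 kb at similar shares, 28.3% of members with a high z-score and 2.61% of those with a low one.

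**Figure D4:**
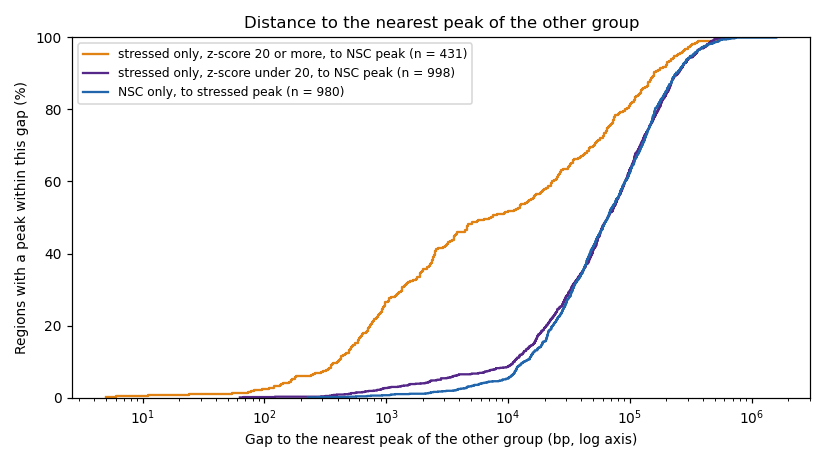
Cumulative share (%) of regions by edge-to-edge gap (bp, log axis) to the nearest peak of the other group, for members with a z-score of 20 or more (orange), members with a z-score under 20 (purple) and isolated regions with an NSC peak only (blue). The orange curve reaches 51.7% at 10 kb, where the purple curve is at 8.62% and the blue one at 5.31%, and the purple and blue curves run close together above it.

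The 3 members closest to an NSC peak show what a call in 1 group can look like at its edge. A member on chromosome 1 from 109530225 to 109530751, with a stressed tag density of 9.62 and a z-score of 21.3, began 5 bp after the end of an NSC peak that ran from 109529732 to 109530220 and had a tag density of 6.83 and a z-score of 39.3. Another on chromosome 1, from 217765001 to 217765438, had a tag density of 10.3 and a z-score of 84.4 and ended 6 bp before an NSC peak from 217765444 to 217765791 with a tag density of 6.39. On chromosome 3 from 89914094 to 89914445, the tag density was 10.9 and the z-score 77.3, and an NSC peak with a tag density of 7.52 began 11 bp further on. The rule leaves room only for weak NSC peaks beside a member, so the lower tag density of these neighbours is not a comparison between groups.

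On the far side of the limit, an isolated region on chromosome 9 from 59616908 to 59617371 with a stressed tag density of 9.37 shared 2 bp with an NSC peak, and one on chromosome 14 from 52567666 to 52568232 with 10.5 shared 6 bp. Both counted as regions with a peak in both groups. Edges this narrow were few, with 9 isolated regions sharing under 50 bp with the NSC list. Partial overlap was more common. Counting an NSC peak only where at least 50% of both regions were shared gave 1568 members in place of 1429. The gap of 10 kb had few regions near it as well. There were 14 members with a gap of 10 to 11 kb to the nearest merged region, and 14 regions with a stressed peak only had a gap of 9 to 10 kb. Just inside were members on chromosome 11 from 61533578 to 61534128 (gap 10.017 kb, tag density 9.96) and on chromosome 16 from 65956711 to 65957042 (gap 10.029 kb, tag density 19.7). Just outside were regions on chromosome 1 from 79260746 to 79261098 (gap 9.942 kb, tag density 14.9) and on chromosome 11 from 34623454 to 34623893 (gap 9.912 kb, tag density 13.6).

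The 3 members with the highest z-scores differed in their surroundings. The highest, 111.3, lay on chromosome 3 from 140223474 to 140223834, where the tag density was 13.04, and no NSC peak lay within 178 kb of it. Next came chromosome X from 95010007 to 95010679, with a z-score of 111.2, a tag density of 10.6 and an NSC peak 0.514 kb away that had a tag density of 7.98 and a z-score of 87.8. The last of the 3, on chromosome 17 from 90068134 to 90068735, had a z-score of 109.8, a tag density of 10.2 and an NSC peak 1.21 kb away with a tag density of 3.65.

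Other stressed peaks lay near the same kind of member. Isolation was set against merged regions only, so weaker stressed peaks could lie close by, and 336 members (23.5%) had one within 10 kb. The share was 58.2% for a high z-score and 8.52% for a low z-score, and 8.09% for isolated regions with a peak in both groups. That last share covers regions of every tag density and z-score. It was not split by z-score class, so it is not matched to the members with a high z-score. Distance to the nearest merged region ran the other way, with a median of 256 kb for a high z-score, 106 kb for a low z-score and 133 kb for all members, against 95.2 kb for regions with a peak in both groups. Members with a high z-score thus lay farther, by median, from other merged regions of any tag density than those with a low one. More of them had a weak peak of either group nearby.

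Members were shorter than regions with a peak in both groups. The latter can join peaks of 2 lists and also had higher tag densities, and whether either accounts for the length was not tested. The median length was 419 bp, against 615 bp where both groups had a peak and 417 bp where the NSC group alone had one. Members with a high z-score had a median of 478 bp and those with a low z-score 396 bp. There were 5 members shorter than 100 bp and 5 of 1 kb or longer. The shortest, chosen after the values were seen, was a single base on chromosome 17 at 13908210, with a tag density of 10.2 and a z-score of 10.9, and the longest ran on chromosome 1 from 7220477 to 7221770, a length of 1294 bp, with a tag density of 16.2 and a z-score of 44.7. The commonest length, 252 bp, occurred in 53 members (3.71%), in 4 of the regions called in both groups (0.120%), in 27 of those called in the NSC group alone (2.76%) and in 7.40% of the stressed list. Those 53 members had a median z-score of 9.90, close to the lowest z-score in the list, 9.65, though 10 of them had a high z-score.

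The caller's p-values were low for all members. The highest was 4.75e-22, and 270 members (18.9%) had a p-value recorded as 0, each of which had a high z-score. These p-values rate a peak against its own background in the stressed libraries and say nothing about a difference between groups.

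Members were found on all 20 autosomes and on chromosome X, from 28 on chromosome 12 to 175 on chromosome 1. On the autosomes, members made up 17.5% to 34.3% of the isolated regions with a stressed peak. On chromosome X they made up 47.5% (56 of 118, 95% Wilson interval 38.7% to 56.4%), against 30.0% (1429 of 4765) over all chromosomes. Of the 56 members on X, 32 had a high z-score and 41 lay under the NSC limit, and the median tag density there was 10.5. At or above the NSC limit, 15 of 51 isolated regions on X with a stressed peak had no NSC peak (29.4%, 95% Wilson interval 18.7% to 43.0%), beside 22.8% over all chromosomes. X held 7.42% of the members with a high z-score, 2.40% of those with a low one, 1.86% of regions with a peak in both groups and 0.918% of those with an NSC peak only, and it held 7.47% of all stressed peaks.

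On chromosomes 10 and 12 the share of isolated regions with a stressed peak that had no NSC peak was the lowest of all chromosomes. There were 63 members on chromosome 10 (22.7% of 277 isolated regions with a stressed peak) and 28 on chromosome 12 (17.5% of 160). Both chromosomes together held 6.37% of the members, 10.4% of regions with a peak in both groups and 9.08% of those with an NSC peak only. Of all stressed peaks, 2.78% lay on chromosome 10 and 1.19% on chromosome 12, so the members' share there was below that of the other isolated regions and above that of the stressed list. Only 6 of these 91 members had a high z-score, so that the 2 chromosomes held 1.39% of members with a high z-score and 8.52% of those with a low one. At or above the NSC limit, 83 of 417 isolated regions with a stressed peak on the 2 chromosomes (19.9%, 95% Wilson interval 16.4% to 24.0%) had no NSC peak. Chromosome 2 leaned the other way, with 49 members of high z-score (11.4% of that class) and 64 of low z-score (6.41%), and it held 11.6% of all stressed peaks.

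**Figure D5:**
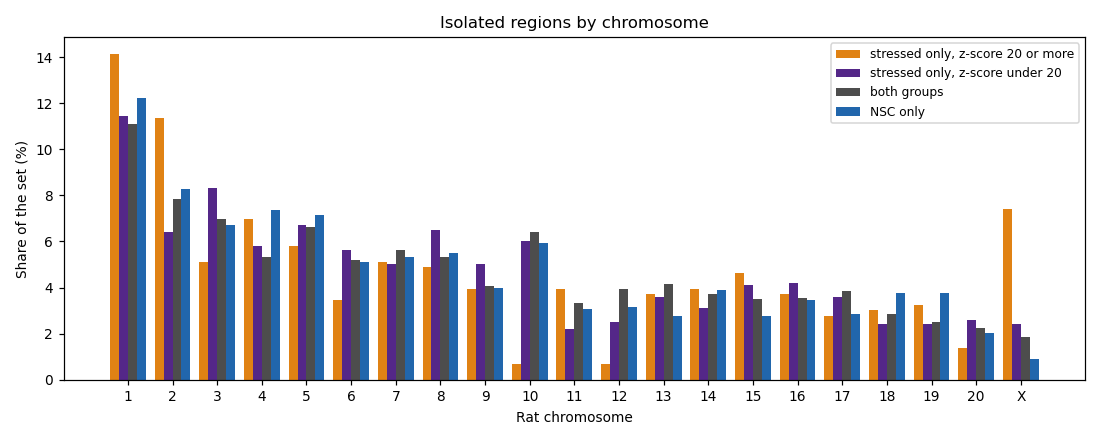
Share (%) of each set of isolated regions by rat chromosome, for members with a z-score of 20 or more (orange), members with a z-score under 20 (purple), regions with peaks in both groups (grey) and regions with an NSC peak only (blue). The orange bars are low on chromosomes 10 and 12, at 0.696% each, and stand at 7.42% on X, while the purple bars stay nearer to the grey and blue ones.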

How the data were processed

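GR ChIP-seq and input libraries of whole hippocampus were grouped as NSC or stressed from the sample labels. Alignment by the authors was to rn5 with Bowtie2. They lengthened the tags, dropped duplicates, scaled tag density by the inputs, left out simple repeats and used the Hotspot algorithm to call peaks found in each replicate of a group. Maximum tag density, as deposited, is the coverage signal at the peak's highest point after the authors' normalisation, and its exact scale is not given in the sources used here. The z-score and the p-value deposited with each peak are a score and a probability from the authors' peak caller. Replicates are combined in all lists, so no test was made, depth is unknown and no interval from tags can be given.

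Regions that shared 1 bp or more were taken to overlap, both end positions being part of a region, and a gap is the start of the later region minus the end of the earlier one. Medians, percentiles, shares with 95% Wilson intervals over regions, and correlations on log2 values were computed with Python 3.11.15, numpy 2.4.6, pandas 2.3.3 and scipy 1.17.1, and plots with matplotlib 3.10.9. On simulated lists of 6289 regions the selection returned 100.0% as planted. The members and lists were chosen with earlier results of these data known. Named regions are the 10 members of highest tag density, the 3 of lowest tag density, the 3 nearest to an NSC peak, the 3 with the highest z-score, and 2 on each side of each limit of the rule. The z-score split, the limits of the merged list, the tag density bands, single chromosomes, windows and lengths were chosen after the values were seen. Gene assignment, response elements and sequences need the rn5 genome, which was not used here, and were not analysed here.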

Additional observations from a re-analysis of the deposited data

How the results depend on the processing

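The member count, its share of isolated regions, the medians of tag density, z-score and length, and the 4 shares by z-score and nearby NSC peaks were recomputed under other rules, and 41 of the recomputed values moved while 28 stayed within 1.5 times of a count or within the 95% interval of a share or median over regions. With a gap of 5 kb or 20 kb in place of 10 kb, this held for all 9 values. Counting an NSC peak only where at least 50% of both regions were shared gave members as 27.3% of isolated regions, a median z-score of 13.9, a high z-score in 34.3%, and an NSC peak within 1 kb of 17.9% of members, 41.1% of those with a high z-score and 5.73% of those with a low one, where an NSC peak that overlaps by less counts as within 1 kb. Counting an NSC peak within 1 kb as overlap gave 22.4% of isolated regions, a median tag density of 13.5, a median z-score of 12.7 and a high z-score in 24.6%, with the 3 shares near an NSC peak at 0 by construction. Requiring 10 kb to every peak of both lists gave 20.6% of isolated regions, a median tag density of 14.3, z-score of 12.0 and length of 401 bp, a high z-score in 12.9%, and those 3 shares again at 0 by construction.

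Keeping only regions at or above the NSC limit gave 895 members (17.9% of isolated regions), a median tag density of 15.3 and z-score of 11.9, a high z-score in 10.6%, and an NSC peak within 1 kb of 1.68% of members, 10.5% with a high z-score and 0.625% with a low one. Keeping only those at or above the 90th percentile of the stressed list gave 107 members (5.16%), a median tag density of 22.7, z-score of 14.8 and length of 498 bp, a high z-score in 6.54%, and those shares at 0.935%, 0 and 1.0%. A z-score split of 15 or 25, added after the data were seen, gave a high z-score in 39.5% or 25.6% of members, and at 15 an NSC peak lay within 1 kb of 21.2% of these.

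No paired analysis was possible because the lists combine the replicates of each group. For the same reason no replicate was left out. The planned shares of members with a response element and in gene bodies, with their alternatives, were not run.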

Other observations

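The members were spread thinly along the genome. The median gap from a member to the nearest other member was 579 kb, with quartiles of 214 kb and 1298 kb. Cutting each chromosome into windows of 1 Mb left 784 windows with 1 member, 212 with 2, 55 with 3, 9 with 4 and 4 with 5. A window on chromosome 1 held 5 members between 38145834 and 38929039, with tag densities of 11.2 to 18.8 and z-scores of 10.04 to 90.2, and no isolated region with an NSC peak. A second on chromosome 1, between 186065005 and 186981090, held 5 members that all had a z-score of 20 or more, with tag densities of 9.77 to 12.9, beside 1 isolated region with peaks in both groups. The other 2 windows with 5 members lay on chromosome 2 between 1128590 and 1940404, with tag densities of 9.47 to 15.6, and on chromosome 9 between 20198859 and 20877406, with tag densities of 9.47 to 11.1. Neither held an isolated region with an NSC peak. These windows were chosen after their values were seen.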
